A study of Mus musculus with 9 samples.

Results

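Semaphorins, plexins and neuropilins were described in whole ovaries of WT and ERβKO mice as a family of 31 genes, taken by gene symbol from the 46078 genes of the deposited count table. The family holds 20 semaphorins, the ligands, and 11 receptors, of which 9 are plexins and 2 are neuropilins. By class there are 7 secreted semaphorins of class 3, 6 membrane semaphorins of class 4, 2 of class 5, 4 of class 6 and 1 of class 7. The plexins are 4 of type A, 3 of type B, 1 of type C and 1 of type D. RNA-seq was made from ovaries of 5 WT and 4 ERβKO mice on the C57BL/6J strain, all given as untreated. The ERβKO mice carry a germline deletion of exon 3 of Esr2, the gene of estrogen receptor β, and the WT mice are described as offspring of the same crosses that lack Cre. Mice across the experiments were aged between 4 and 20 weeks, with no age for single ovaries, and the estrous cycle was not staged. A protocol text that the labels of all 9 samples share describes a high-fat or matched diet and injections of an estrogenic ligand, and which mice it applies to is not given there.

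Semaphorins are guidance proteins that steer axons, blood vessels and migrating cells, and most of them signal by binding plexins, whose inner part switches off small GTPases of the Ras and Rap families and so loosens the cell's hold on its surroundings. Class 3 semaphorins are secreted, and most of them need a neuropilin as the binding partner of a plexin-A, whereas the membrane semaphorins of the other classes bind plexins directly. Neuropilins also bind vascular endothelial growth factors. The ovary is one of the few adult organs in which vessels grow and regress repeatedly, with each follicle and corpus luteum.

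Between 12353740 and 16519975 fragments were counted per WT ovary, and between 13088728 and 18717510 per ERβKO ovary. Esr2 itself was listed at 12.4 to 23.9 FPKM in WT and at 10.5 to 23.7 FPKM in ERβKO ovaries (FPKM, fragments scaled to the length of the transcript and to the mapped fragments of the library), and its count covers the exons that the deletion leaves, so it does not check the genotype labels. On the first principal component of all tested genes (35.9% of the variance), WT replicate 2 was found at 9.43, whereas the remaining WT ovaries ran from -43.8 to -15.6 and the ERβKO ovaries from 19.4 to 35.3. Results that turn on that ovary are given with and without it. In these whole organs, fewer cells of a type and less RNA per cell cannot be told apart. No gene on the 16 marker lists of ovarian cell types was at 0 in all ovaries. The summed FPKM of 3 of them did not overlap between the genotypes, all higher in ERβKO, namely granulosa cells (468 to 599.9 in WT, 681 to 941 in ERβKO), theca cells (465 to 728 against 836 to 1718) and Schwann cells (63.2 to 91.7 against 95.7 to 141). Of the tested markers, 2 of 8 for granulosa cells and 1 of 5 for theca cells were called higher by edgeR, and for Schwann cells 1 of 6 was called higher and 1 lower. The sums overlapped for luteal cells (3028 to 6335 against 2452 to 3901), for endothelial cells (108 to 131 against 101 to 124) for arterial endothelial cells (22.4 to 33.5 against 28.1 to 34.6) and for adipocytes (205 to 397 against 201.4 to 1231). Single markers of luteal cells and adipocytes nevertheless differed. Of 9 luteal markers, 8 had a log2 fold change below 0 (median -0.86) and 5 an unadjusted p under 0.05, with 3 called lower by DESeq2 and none by edgeR. Of 10 adipocyte markers, 9 lay above 0 (median 1.2) and 9 had an unadjusted p under 0.05, with 3 called higher by DESeq2 and none by edgeR. For comparison, 19.8% of all genes tested by edgeR had an unadjusted p under 0.05. It called 1.72% of them, and DESeq2 called 4.6% of the genes it tested. The part of these cell types in the results that follow was not tested.

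Of the 31 genes, 30 passed the filter on low counts. Sema4f did not, with 1 to 14 counts per ovary and no more than 0.15 FPKM. Among the ligands of WT ovaries, Sema5a and the membrane-anchored Sema7a stood highest, at 20.9 ± 3.37 and 20.3 ± 3.40 FPKM (mean ± SD, n = 5), followed by Sema3c at 13.7 ± 3.50 FPKM. At the lower end, Sema5b was at 0.901 ± 0.212 FPKM and Sema6b at 0.663 ± 0.218 FPKM. The order is a gradual one, since the WT ranges of 17 of the 19 pairs of neighbours overlapped. The breaks lay between Sema6d and Sema4c and between Sema6b and Sema4f.

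Among the receptors, Plxnb2, which binds class 4 semaphorins, was highest in WT ovaries at 30.5 ± 2.86 FPKM (n = 5), and its range lay above that of the next, Plxnb1, at 20.7 ± 2.70 FPKM. Plxna1, Nrp2, Plxnc1, Nrp1 and Plxnd1 followed between 16.9 and 11.8 FPKM, each overlapping the next of these 5. Plxna2, Plxna3 and Plxna4 formed a lower group between 4.43 and 3.57 FPKM, and Plxnb3 was lowest at 0.894 ± 0.256 FPKM. Of the 10 pairs of neighbouring receptors, 6 overlapped in WT.

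**Figure D1:**
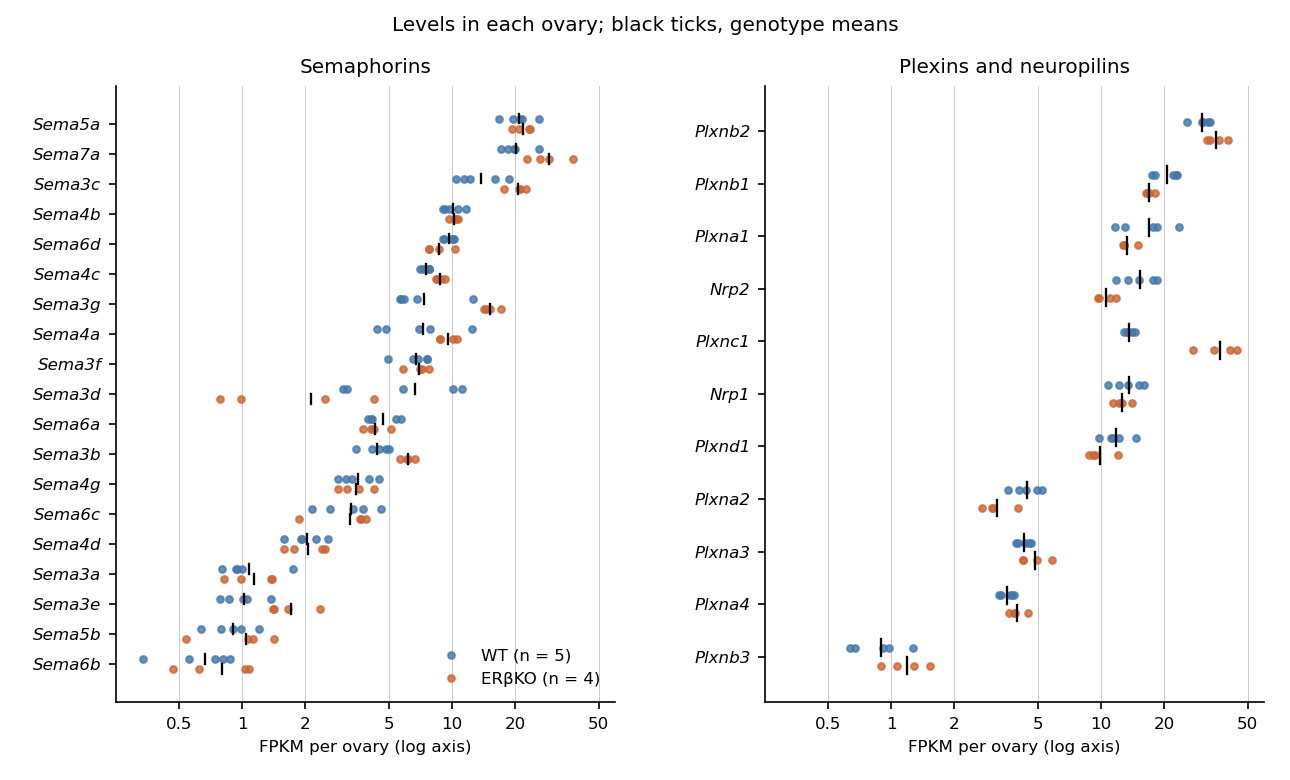
Level of the 30 tested genes in each ovary, in FPKM on a log axis, with semaphorins on the left and plexins and neuropilins on the right, sorted by their WT mean. Points are single ovaries, and black ticks are genotype means. Among the receptors the mean of Plxnc1 moves from rank 5 in WT (13.7 FPKM) to rank 1 in ERβKO (36.9 FPKM). In ERβKO its range overlaps that of Plxnb2, with a mean of 35.4 FPKM.

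The question put to these genes was whether their transcripts differ between ovaries with and without ERβ. The clearest difference was the receptor Plxnc1, which was higher in every ERβKO ovary. Next by unadjusted p came the class 3 ligands Sema3b, Sema3g and Sema3e, which were higher, and the receptor Nrp2, which was lower. Class 3 did not move as one, since Sema3d had a lower mean and Sema3a and Sema3f differed little. To be called a differentially expressed gene (DEG), a gene had to reach an adjusted p (Benjamini-Hochberg) of under 0.05, differ by over 0.4 in log2 and average over 1 FPKM in a genotype. edgeR's quasi-likelihood test called 3 of the 30 tested members (10.0%), all higher in ERβKO, where it called 1.72% of all 16722 genes, 0.915% as higher and 0.801% as lower. They were Plxnc1, Sema3b and Sema3g. No member was called lower by edgeR, although 6 were lower at an unadjusted p under 0.05. DESeq2 called 7 members (23.3%, against 4.6% of the 17443 genes it tested, 2.16% higher and 2.45% lower), adding Sema3c and Sema3e among the higher and Nrp2 and Plxna2 as lower. The FPKM ranges of the genotypes did not overlap for 5 members (16.7%, against 7.61% of all genes, 4.29% higher and 3.31% lower), all higher in ERβKO, namely Sema3b, Sema3e, Sema3g, Sema4c and Plxnc1. At an unadjusted p under 0.05 stood 15 of the 30 members, against 19.8% of all genes, 9 higher and 6 lower. The median log2 fold change of the 30 members was 0.068, and that of all genes -0.00089, with 18 members above 0 and 12 below. These genes were taken up with earlier results known, and the shares are a description.

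**Figure D2:**
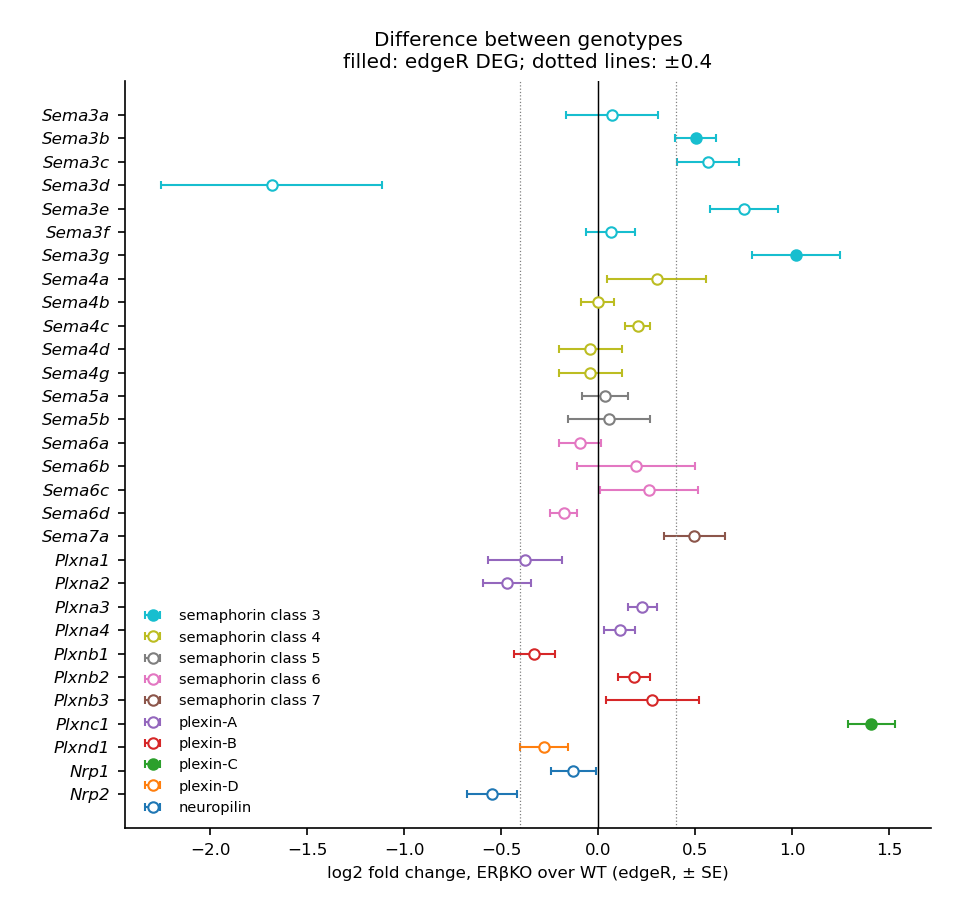
Log2 fold change of the 30 tested genes, ERβKO over WT, with bars of 1 standard error from edgeR's quasi-likelihood fit, coloured by class. Filled points are the 3 DEGs of edgeR, Plxnc1 (1.41), Sema3g (1.02) and Sema3b (0.50); Sema3d lies farthest to the left (-1.68) with the widest bar.

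Plxnc1 is the only plexin of type C and the receptor of Sema7a. It is encoded on chromosome 10 of GRCm38 from 94790866 to 94944578, on the minus strand. Its level was 12.8, 14.5, 13.5, 13.4 and 14.0 FPKM over WT replicates 1 to 5, against 27.5, 41.2, 34.4 and 44.3 FPKM over ERβKO replicates 1 to 4. All 4 ERβKO ovaries lay above all 5 WT ovaries, and the WT ovaries lay much closer together (coefficient of variation 4.7%) than the ERβKO ovaries (20.3%). On counts the log2 fold change was 1.41 (SE 0.12), a 2.65-fold difference, with adjusted p = 0.000796 by edgeR's quasi-likelihood test (Benjamini-Hochberg). With each ovary left out in turn the log2 fold change ran from 1.31 to 1.53, and the call held under all 18 alternatives. Of its exon length 1.38% is shared with another annotated gene on the same strand.

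The make-up of plexin transcripts shifted with it. Plxnc1 made up 12.8% of the summed plexin FPKM in WT ovaries (11.4 to 14.8%) and 29.3% in ERβKO ovaries (21.8 to 34.6%). The sum of the 9 plexins was 107 ± 5.44 FPKM in WT (n = 5) and 125.7 ± 6.31 FPKM in ERβKO (n = 4), with no overlap. Without Plxnc1, the sum of the other 8 was 93.1 ± 6.00 FPKM in WT against 88.8 ± 7.61 FPKM in ERβKO, and the ranges overlapped. The sums are given without a test.

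**Figure D3:**
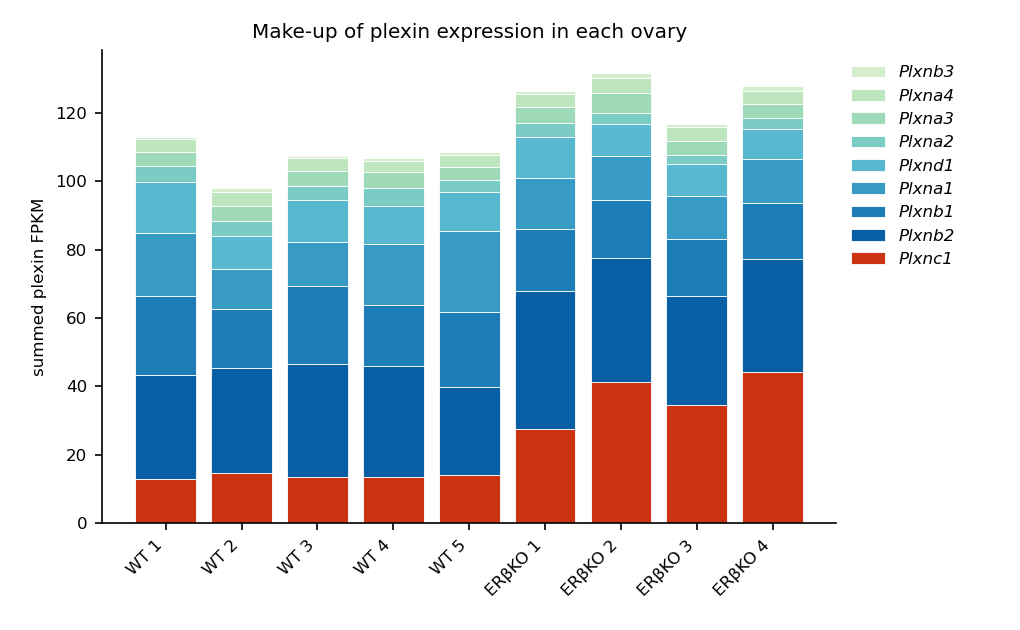
Summed FPKM of the 9 plexins in each of the 9 ovaries, stacked by gene, with Plxnc1 in red at the base. The red segment is 12.8 to 14.5 FPKM high in the 5 WT ovaries and 27.5 to 44.3 FPKM in the 4 ERβKO ovaries, while the rest of the stack sums to 83.5 to 100.1 FPKM in WT and 82.4 to 98.9 FPKM in ERβKO.

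Sema7a, the ligand of Plxnc1 and the only semaphorin held in the membrane by a lipid anchor, had the highest mean of the semaphorins in ERβKO ovaries. There its range overlapped that of Sema5a, which was the higher of them in ERβKO replicate 4. The level of Sema7a was 26.0, 20.02, 19.7, 17.1 and 18.4 FPKM over WT replicates 1 to 5, against 26.3, 29.1, 37.7 and 22.7 FPKM over ERβKO replicates 1 to 4. The genotypes overlapped, since WT replicate 1 lay above ERβKO replicate 4. Its log2 fold change was 0.50 (SE 0.16), with adjusted p = 0.123 by edgeR's quasi-likelihood test, and between 0.0534 and 0.374 over the 18 alternatives. Ligand and receptor thus had higher means in ERβKO ovaries, but the difference of the ligand did not pass the test.

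Among the 7 secreted class 3 semaphorins, the median log2 fold change was 0.50, with 6 genes above 0 and Sema3d below. Sema3g, a ligand that works through Nrp2 and is known from arterial endothelium, had the largest difference of the called ligands. Its level was 5.68, 5.91, 12.6, 6.77 and 5.65 FPKM over WT replicates 1 to 5, against 14.2, 14.6, 17.04 and 15.2 FPKM over ERβKO replicates 1 to 4. WT replicate 3 stood apart from the other WT ovaries, and all ERβKO ovaries lay above it. The log2 fold change was 1.02 (SE 0.23), with adjusted p = 0.0487 by edgeR's quasi-likelihood test. It was 1.31 (adjusted p = 0.000446) without WT replicate 3, and the range over the 18 alternatives was 0.000446 to 0.21. The call was lost without any 1 of the ERβKO ovaries or of WT replicates 1, 4 and 5. In WT replicate 3 the summed markers of arterial endothelial cells were 24.8 FPKM, inside the range of the other WT ovaries. Its sums for stromal fibroblasts (939 FPKM) and oocytes (124 FPKM) were the highest among the WT ovaries. ERβKO replicate 1 had the lowest Sema3g of its genotype. There the summed adipocyte markers reached 1231 FPKM, against 201.4 to 519 in the other ERβKO ovaries. The oocyte sum of ERβKO replicate 1, 158 FPKM, was the highest of all ovaries of both genotypes. Whether cell composition has a part in the level of Sema3g was not tested.

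Sema3b, a class 3 ligand of both neuropilins, was higher by a smaller margin and with little spread. Its level was 4.48, 4.84, 4.17, 3.49 and 4.99 FPKM over WT replicates 1 to 5, against 5.62, 6.12, 6.17 and 6.67 FPKM over ERβKO replicates 1 to 4, without overlap. Its log2 fold change was 0.50 (SE 0.11), with adjusted p = 0.0424 by edgeR's quasi-likelihood test. Over the 18 alternatives the adjusted p lay between 0.00254 and 0.183, and the call was lost under 12 of them, among them the omission of any 1 ovary other than WT replicate 2.

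Sema3c, which guides vascular and neural crest cells and binds both neuropilins, was the most abundant class 3 ligand in both genotypes. Its level was 10.4, 18.7, 12.1, 15.99 and 11.4 FPKM over WT replicates 1 to 5, against 17.6, 22.5, 21.0 and 20.9 FPKM over ERβKO replicates 1 to 4. Only WT replicate 2 reached into the ERβKO range. The log2 fold change was 0.57 (SE 0.16), with adjusted p = 0.0923 by edgeR's quasi-likelihood test, 0.0254 in DESeq2 and 0.0183 to 0.243 over the 18 alternatives. Without WT replicate 2 it was 0.69, with an edgeR adjusted p of 0.0183.

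Sema3e, the class 3 ligand that binds Plxnd1 without a neuropilin, was low in both genotypes. Its level was 0.78, 1.36, 1.06, 1.00 and 0.87 FPKM over WT replicates 1 to 5, against 1.64, 2.35, 1.40 and 1.42 FPKM over ERβKO replicates 1 to 4. The gap between the genotypes was narrow, with WT replicate 2 just under ERβKO replicate 3. Its log2 fold change was 0.75 (SE 0.18), with adjusted p = 0.057 by edgeR's quasi-likelihood test, 0.00367 in DESeq2 and 0.00367 to 0.223 over the 18 alternatives. Without WT replicate 2 it was 0.88, with an edgeR adjusted p of 0.0174.

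The remaining class 3 ligands did not pass either tool. Sema3d, named here after its values were seen because its log2 fold change was farthest from 0, was at 10.1, 11.1, 5.81, 3.03 and 3.14 FPKM over WT replicates 1 to 5, against 0.99, 0.78, 2.49 and 4.23 FPKM over ERβKO replicates 1 to 4. It was the most variable of the 30 tested members in both genotypes, with coefficients of variation of 57.2% in WT and 75.3% in ERβKO, against medians of 17.3% and 13.6% over these members. Its log2 fold change of -1.68 (SE 0.57) gave adjusted p = 0.144 by edgeR's quasi-likelihood test and 0.0912 by DESeq2, the lowest of its 18 alternatives, which reached 0.299. Sema3a, the founding repulsive cue of the family, was at 1.08 ± 0.374 FPKM in WT against 1.14 ± 0.286 FPKM in ERβKO. Sema3f, the ligand that prefers Nrp2, was at 6.71 ± 1.08 FPKM in WT against 6.96 ± 0.800 FPKM in ERβKO.

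In position, 4 of the class 3 genes, Sema3d, Sema3a, Sema3e and Sema3c, lie in this order within 5.35 Mb of chromosome 5 (12383385 to 17730268), and Sema3b and Sema3f within 0.113 Mb of chromosome 9 (107597674 to 107710475). The log2 fold changes along chromosome 5 were -1.68, 0.072, 0.75 and 0.57, and those of Sema3b and Sema3f were 0.50 and 0.065. Whether neighbours differed from each other was not tested.

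**Figure D4:**
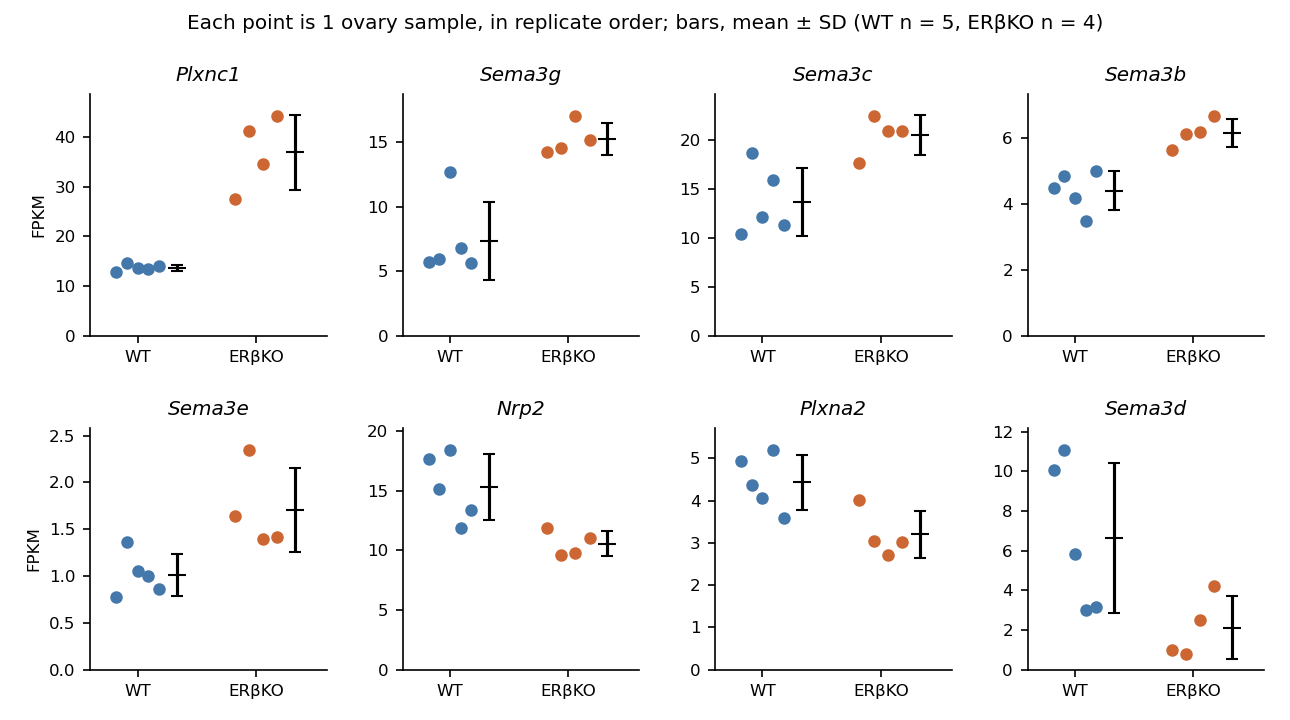
FPKM of 8 members in each ovary, with each panel on its own axis from 0. Points are the 5 WT and 4 ERβKO ovaries in replicate order, and bars are means ± SD; the genotypes do not overlap for Plxnc1, Sema3g, Sema3b and Sema3e, and overlap for Sema3c, Nrp2, Plxna2 and Sema3d.

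The bases before the start sites of 4 of the members with higher levels in ERβKO ovaries, and of Nrp2, are printed because the deleted protein is a DNA-binding receptor. Plxna2, which DESeq2 also called, is not printed. RefSeq promoters on GRCm38.p6 were at hand for 26 of the 31 genes, and Sema3b, Sema3f, Plxna1, Plxna4 and Sema6a had no entry. Each line gives the 250 bases before the RefSeq start, 5′ to 3′ on the strand of the gene, with GC boxes (GGGCGG on either strand) in capitals. The windows are chr10:94944846-94945095 on the minus strand for Plxnc1, and on the plus strand chr14:31217623-31217872 for Sema3g, chr5:17574566-17574815 for Sema3c, chr5:14025026-14025275 for Sema3e and chr1:62703067-62703316 for Nrp2. The RefSeq start of Plxnc1 lies 267 bases upstream of the start of the deposited gene model, and that of Sema3c 535 bases downstream of it. Bases after the start were found in a transcript of the gene for Sema3g, Sema3c, Sema3e and Nrp2, but not for Plxnc1. The orientation of the Plxnc1 line was thus not checked in this way.
Plxnc1: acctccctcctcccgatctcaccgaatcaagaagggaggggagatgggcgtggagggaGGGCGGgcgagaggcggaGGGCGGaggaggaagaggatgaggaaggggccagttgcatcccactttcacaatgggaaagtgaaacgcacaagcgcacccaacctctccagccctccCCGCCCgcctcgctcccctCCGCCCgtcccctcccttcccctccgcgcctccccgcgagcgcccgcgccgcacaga
Sema3g: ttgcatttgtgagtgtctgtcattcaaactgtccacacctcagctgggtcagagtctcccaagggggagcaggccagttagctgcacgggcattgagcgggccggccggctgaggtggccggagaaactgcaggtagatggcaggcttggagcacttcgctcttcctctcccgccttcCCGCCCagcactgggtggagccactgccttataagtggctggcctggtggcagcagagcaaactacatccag
Sema3c: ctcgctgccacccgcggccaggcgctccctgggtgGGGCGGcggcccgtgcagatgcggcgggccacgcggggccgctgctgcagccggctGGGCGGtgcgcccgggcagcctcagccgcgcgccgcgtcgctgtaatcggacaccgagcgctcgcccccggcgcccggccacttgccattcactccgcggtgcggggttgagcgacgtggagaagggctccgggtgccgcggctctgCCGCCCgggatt
Sema3e: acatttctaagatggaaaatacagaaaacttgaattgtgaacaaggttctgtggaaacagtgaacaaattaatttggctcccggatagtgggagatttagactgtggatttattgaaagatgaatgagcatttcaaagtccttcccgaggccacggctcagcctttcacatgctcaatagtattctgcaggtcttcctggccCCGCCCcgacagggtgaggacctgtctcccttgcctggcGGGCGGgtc
Nrp2: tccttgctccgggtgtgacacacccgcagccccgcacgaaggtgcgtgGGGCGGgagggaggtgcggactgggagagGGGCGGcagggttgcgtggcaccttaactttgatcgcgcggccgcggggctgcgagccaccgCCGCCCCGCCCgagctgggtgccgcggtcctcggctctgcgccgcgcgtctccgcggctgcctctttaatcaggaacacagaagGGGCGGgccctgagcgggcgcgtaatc

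On both strands of these 5 windows there was no match to the full estrogen response element (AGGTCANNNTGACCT), to its half-site (AGGTCA), to the NR5A site (CAAGGTCA, which contains the half-site), to the AP-1 site (TGANTCA) or to the GATA site (AGATAA). Among all 32851 promoters of the same length, 0.0213% held the full element, 14.0% the half-site, 1.33% the NR5A site, 6.75% the AP-1 site and 9.99% the GATA site. GC boxes were present in all 5 windows, with 4 in Plxnc1, 1 in Sema3g, 3 in Sema3c, 2 in Sema3e and 5 in Nrp2, and in 32.7% of all promoters. They are common in the family: of the 37 promoters listed for the 26 members, 27 held a GC box, 7 the half-site, 3 the AP-1 site and 1 the NR5A site, and none the full element or the GATA site. A missing match says only that these letters are absent from the 250 bases shown. For the full element that outcome was nearly fixed beforehand, given its share of 0.0213% among all promoters. The other motifs without a match are also absent from most promoters (shares of 1.33% to 14.0%), so their absence from 5 windows says little. The study scanned for a looser form of the element. It reported most ERβ sites in introns and intergenic regions and a minority in promoters. These windows therefore cannot tell whether ERβ binds near these genes.

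Of the 12 tested members of classes 4 to 7, none was a DEG in edgeR or DESeq2. At an unadjusted p under 0.05 stood 3 of them, against 19.8% of all genes, Sema4c and Sema7a higher and Sema6d lower. The difference of Sema7a, described above, was as large on the log2 scale (0.50) as that of Sema3b (0.50), with a wider SE (0.16 against 0.11). Sema4c, a ligand of Plxnb2, was the 1 of them without overlap, at 7.74, 7.05, 7.80, 7.28 and 7.75 FPKM over WT replicates 1 to 5, against 8.82, 9.24, 8.44 and 8.42 FPKM over ERβKO replicates 1 to 4. The groups were separate but close, with a log2 fold change of 0.20 (SE 0.066) and adjusted p = 0.131 by edgeR's quasi-likelihood test. Of the exon length of Sema4c 7.27% lies opposite an antisense gene, and no source used here says if strand was regarded in the counts.

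Sema4b was the most abundant class 4 ligand, at 10.7, 9.79, 11.7, 9.07 and 9.30 FPKM over WT replicates 1 to 5, against 10.4, 10.2, 10.7 and 9.69 FPKM over ERβKO replicates 1 to 4. All ERβKO values lay inside the WT range, and the log2 fold change was -0.0024 (SE 0.085). Sema4a, a ligand known from immune cells, varied widely within WT, from 4.38 to 12.4 FPKM, with WT replicate 2 on top, while the ERβKO ovaries lay between 8.72 and 10.6 FPKM. Sema4d, the ligand of Plxnb1, was at 2.04 ± 0.371 FPKM in WT against 2.05 ± 0.452 FPKM in ERβKO, and Sema4g at 3.56 ± 0.678 and 3.47 ± 0.612 FPKM.

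Sema5a, whose class carries thrombospondin repeats, was at 21.0, 19.5, 16.7, 25.9 and 21.6 FPKM over WT replicates 1 to 5, against 23.3, 19.4, 20.9 and 23.7 FPKM over ERβKO replicates 1 to 4. It was the most abundant ligand of WT ovaries and its ranges overlapped fully, with a log2 fold change of 0.036 (SE 0.12) and adjusted p = 0.898 by edgeR's quasi-likelihood test. Sema6d, a ligand of Plxna1 and the most abundant of class 6, was at 10.2, 10.1, 9.96, 9.01 and 9.17 FPKM over WT replicates 1 to 5, against 8.69, 10.4, 7.79 and 7.77 FPKM over ERβKO replicates 1 to 4. ERβKO replicate 2 lay above all WT ovaries and the other 3 below them, and the log2 fold change was -0.18 (SE 0.070), with adjusted p = 0.196 by edgeR's quasi-likelihood test. Sema6a was at 4.67 ± 0.827 FPKM in WT against 4.30 ± 0.564 FPKM in ERβKO, and Sema6b stayed under 1.1 FPKM in every ovary. Summed over all 20 semaphorins, ligand transcripts reached 132 ± 10.3 FPKM in WT (117 to 145) and 157 ± 6.08 FPKM in ERβKO (151 to 165). These sums did not overlap and are given without a test. The largest differences in mean were those of Sema7a (20.3 against 28.9 FPKM), Sema3g (7.33 against 15.2) and Sema3c (13.7 against 20.5). The sum of each class overlapped. Of the 19 tested semaphorins 13 had a log2 fold change above 0 and 6 below, with a median of 0.072.

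For Sema6c and Sema5b the deposited units went apart. Were the same fragments behind both, FPKM divided by the share of the library's counts would be constant for a gene over the 9 ovaries. The highest ratio was 1.86 times the lowest for Sema6c and 1.69 times for Sema5b, against a median of 1.07 over the 30 members, and no other member was above 1.5. Sema6c had a log2 ratio of mean FPKM of -0.010 but a log2 fold change of 0.26 (SE 0.25) on its 37 to 110 counts, and Sema5b was at 0.20 and 0.056. Values of these genes are uncertain to that extent.

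Of the 8 plexins other than Plxnc1, none was a DEG in edgeR and 5 had an unadjusted p under 0.05, against 19.8% of all genes. Plxna3 and Plxnb2 were higher and Plxna2, Plxnb1 and Plxnd1 lower. Plxna2, a receptor of class 6 semaphorins and a partner of neuropilins, was called by DESeq2. Its level was 4.93, 4.37, 4.06, 5.21 and 3.59 FPKM over WT replicates 1 to 5, against 4.01, 3.05, 2.71 and 3.03 FPKM over ERβKO replicates 1 to 4. ERβKO replicate 1 alone reached into the WT range, above WT replicate 5. The log2 fold change was -0.47 (SE 0.13), with adjusted p = 0.0813 by edgeR's quasi-likelihood test, 0.0138 in DESeq2 and 0.0138 to 0.219 over the 18 alternatives. Without ERβKO replicate 1 it was -0.59, with an edgeR adjusted p of 0.0378.

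Plxna1, the most abundant plexin of type A, was at 18.6, 11.6, 13.0, 17.7 and 23.6 FPKM over WT replicates 1 to 5, against 14.9, 12.8, 12.8 and 12.9 FPKM over ERβKO replicates 1 to 4. The WT ovaries were spread over a range that held all ERβKO ovaries, and the log2 fold change was -0.38 (SE 0.19), with adjusted p = 0.305 by edgeR's quasi-likelihood test. Of its exon length 10.7% lies opposite an antisense gene. Plxna3 was at 4.29 ± 0.316 FPKM in WT against 4.82 ± 0.748 FPKM in ERβKO, and Plxna4 at 3.57 ± 0.256 and 3.97 ± 0.370 FPKM.

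The abundant receptors of type B leaned in opposite directions, without passing the test. Plxnb2 was at 30.4, 30.7, 33.03, 32.5 and 25.8 FPKM over WT replicates 1 to 5, against 40.4, 36.4, 31.9 and 32.9 FPKM over ERβKO replicates 1 to 4, of which the last 2 lay inside the WT range. Its log2 fold change was 0.19 (SE 0.081), with adjusted p = 0.238 by edgeR's quasi-likelihood test. Plxnb1, the receptor of Sema4d, was at 17.4 to 23.1 FPKM in WT and 16.4 to 18.1 FPKM in ERβKO ovaries, with 2.68% of its exon length opposite an antisense gene, a log2 fold change of -0.33 (SE 0.10) and adjusted p = 0.123 by edgeR's quasi-likelihood test. In DESeq2 the adjusted p of Plxnb1 was 0.0492, within a range of 0.0284 to 0.267 over the 18 alternatives, but its fold change stayed under the limit of 0.4. The lowest, 0.0284, came from edgeR without WT replicate 2, at a log2 fold change of -0.395. Plxnb3 was at 0.894 ± 0.256 FPKM in WT against 1.19 ± 0.273 FPKM in ERβKO.

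Plxnd1, the receptor of Sema3e and a plexin of endothelial cells, was at 14.7, 9.75, 12.2, 11.2 and 11.4 FPKM over WT replicates 1 to 5, against 12.02, 9.40, 9.18 and 8.81 FPKM over ERβKO replicates 1 to 4. Only ERβKO replicate 1 lay inside the WT range, and the log2 fold change was -0.28 (SE 0.13), with adjusted p = 0.251 by edgeR's quasi-likelihood test. Ligand and receptor of this pair thus had means that differed in opposite directions, Sema3e 1.01 against 1.70 FPKM and Plxnd1 11.8 against 9.85 FPKM, in WT and ERβKO respectively.

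Both neuropilins had lower means in ERβKO ovaries, Nrp2 by more. Nrp2, the neuropilin of Sema3f, Sema3g and lymphatic vessels, was at 17.7, 15.2, 18.4, 11.8 and 13.4 FPKM over WT replicates 1 to 5, against 11.8, 9.65, 9.77 and 11.0 FPKM over ERβKO replicates 1 to 4. The groups touched, with ERβKO replicate 1 just above WT replicate 4 and the other ERβKO ovaries below all WT ovaries. Its log2 fold change was -0.55 (SE 0.13), with adjusted p = 0.0573 by edgeR's quasi-likelihood test, 0.00388 in DESeq2 and 0.00388 to 0.169 over the 18 alternatives. Nrp2 passed the threshold under 5 of these, among them without WT replicate 2 (0.0426) and without WT replicate 4 (0.0354). Nrp1 was at 13.5 ± 2.14 FPKM in WT against 12.6 ± 1.13 FPKM in ERβKO, with a log2 fold change of -0.13 (SE 0.12). The share of Nrp2 in the summed neuropilin FPKM was 53.0% in WT (48.6 to 56.8%) and 45.6% in ERβKO (40.9 to 49.3%). Summed over both neuropilins, transcripts were at 28.8 ± 4.43 FPKM in WT (24.05 to 33.6) and at 23.2 ± 1.39 FPKM in ERβKO (21.1 to 24.03), lower and just without overlap, given without a test. The summed markers of lymphatic endothelial cells were at 81.8 to 129.4 FPKM in WT and 129.3 to 142 FPKM in ERβKO. Most of that sum came from Ccl21a and Pdpn. Of the 4 markers, 3 had a log2 fold change above 0, and Prox1 was below (-0.33), at 0.82 against 0.65 FPKM. Neither tool called any of the 4. Whether lymphatic cells have a part in the level of Nrp2 was not tested.

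**Figure D5:**
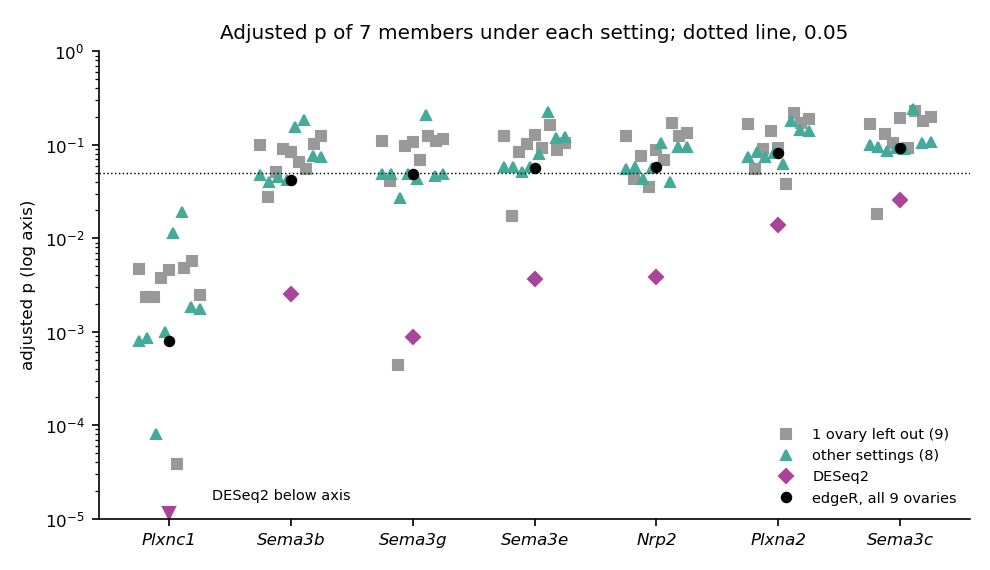
Benjamini-Hochberg adjusted p (log axis) of 7 members with edgeR on all 9 ovaries (black), with DESeq2 (purple), with 1 ovary left out (grey, 9 points) and under 8 other settings (green). Plxnc1 lies under the dotted line of 0.05 throughout, with a highest value of 0.0189, whereas the other 6 have points on both sides of it.

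Partners of semaphorin signalling were looked up in 4 lists, of which 63 genes were tested. edgeR called 2 of them (3.17%, against 1.72% of all genes), both plexin effectors and both higher. DESeq2 called 5 of the 63, 2 higher and 3 lower, where it called 4.6% of all the genes it tested. Pak3, a kinase downstream of the GTPases Rac and Cdc42, was at 5.40, 8.17, 5.91, 3.64 and 5.70 FPKM over WT replicates 1 to 5, against 10.1, 15.9, 16.4 and 17.4 FPKM over ERβKO replicates 1 to 4. The genotypes did not overlap, and the log2 fold change was 1.34 (SE 0.21), with adjusted p = 0.0151 by edgeR's quasi-likelihood test. Pak3 lost the call under 4 of the 18 alternatives, with the replicate block (0.0591), with the libraries numbered below 200 (0.0875), without ERβKO replicate 2 (0.0562) and without ERβKO replicate 4 (0.0545). Mras, a Ras-type GTPase of the kind that plexins act on, was at 25.5, 19.2, 26.2, 28.8 and 19.1 FPKM over WT replicates 1 to 5, against 39.4, 35.7, 32.4 and 43.97 FPKM over ERβKO replicates 1 to 4. It too did not overlap, with a log2 fold change of 0.65 (SE 0.13) and adjusted p = 0.0357 by edgeR's quasi-likelihood test. Mras lost the call under 9 of the 18 alternatives, with the libraries numbered below 200 (0.0876), with both limma fits (0.0527 and 0.0529), and without WT replicate 1 or 5 or any 1 ERβKO ovary (0.0573 to 0.1). The 37 effectors had a median log2 fold change of -0.05, and 4 were higher and 9 lower at an unadjusted p under 0.05. Over all tested genes 19.8% stood under that p, 1641 higher and 1674 lower.

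The 3 partners that DESeq2 added were all lower in ERβKO ovaries. Dpysl4, a collapsin response mediator, was at 29.2, 6.30, 7.72, 28.5 and 49.3 FPKM over WT replicates 1 to 5, against 5.25, 4.43, 5.40 and 6.63 FPKM over ERβKO replicates 1 to 4. WT replicates 2 and 3 stood next to the ERβKO ovaries, and the log2 fold change was -2.11 (SE 0.55), with adjusted p = 0.0769 by edgeR's quasi-likelihood test, 0.012 in DESeq2 and up to 0.27 over the 18 alternatives. Rhod, a GTPase that binds plexins, was at 4.60 to 12.4 FPKM in WT and 3.30 to 4.55 FPKM in ERβKO ovaries, with a log2 fold change of -1.08 (SE 0.29). Its adjusted p was 0.0817 by edgeR's quasi-likelihood test, 0.00518 in DESeq2 and up to 0.275 over the alternatives. Itga1, an integrin chain that forms a receptor of Sema7a with Itgb1, was at 4.21 ± 0.486 FPKM in WT against 3.24 ± 0.512 FPKM in ERβKO, with adjusted p = 0.0934 by edgeR's quasi-likelihood test, 0.0244 in DESeq2 and up to 0.242 over the alternatives. Without WT replicate 2 edgeR called all 3 of these partners lower, Dpysl4 (adjusted p = 0.018), Rhod (0.0246) and Itga1 (0.0494). Without WT replicate 3 it called Dpysl4 (0.0398) and Rhod (0.0448). Among the 15 co-receptors edgeR called none, with 2 higher and 3 lower at an unadjusted p under 0.05, against 19.8% of all genes.

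The 5 tested vascular endothelial growth factors, which share the neuropilins with class 3 semaphorins, held no DEG of either tool and none had an unadjusted p under 0.05. The smallest belonged to Vegfa, at 50.5 ± 11.1 FPKM in WT against 43.4 ± 4.67 FPKM in ERβKO (unadjusted p = 0.12 in edgeR's quasi-likelihood test). Of the 6 proteases that cleave semaphorins or their receptors, none was a DEG of either tool and only Mmp14 had an unadjusted p under 0.05, at 50.2 ± 7.49 FPKM in WT against 43.7 ± 0.386 FPKM in ERβKO (unadjusted p = 0.0326 in edgeR's quasi-likelihood test).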

How the data were processed

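From frozen ovaries the authors made strand-specific libraries of polyadenylated RNA, mapped the read pairs to GRCm38 with STAR, counted fragments per gene with FeatureCounts and calculated FPKM per gene with StringTie. The submitters' processing notes name bcl2fastq 2.20.0.422. The deposited counts are raw, and the deposited FPKM are scaled to gene length and mapped fragments by the authors. Whether counting used the strand is not given in the sources used here.

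Counts were fitted with edgeR 4.0.16 in R 4.3.3 (filterByExpr, TMM, genotype as the factor; common biological coefficient of variation 0.179) and compared with the quasi-likelihood test and Benjamini-Hochberg adjustment over 16722 genes. Adjusted p values in the text are from that fit unless DESeq2 1.42.0 is named. SE were taken from the log2 fold change and the F statistic. FPKM were used for levels, for the criterion of a mean over 1 and in limma 3.58.1. DEG thresholds follow the study, whose tool was DESeq2. The fits were tested on simulated data. Figures and tables were made in Python 3.11.15 with pandas 2.3.3, NumPy 2.4.6 and Matplotlib 3.10.9.

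The genes, the partner and marker lists and the thresholds were chosen with earlier results of these data known. Full values are given for members that either tool called, those without overlap, and the most abundant of each class in WT ovaries. Of a partner list every DEG of either tool is named, otherwise the gene with the smallest p. Vegfd is listed in the table as Figf. Gene spans matched GENCODE vM21 for 22 of the 31 members, and exon overlaps were taken from it. Alternatives were DESeq2, its size factors or upper-quartile factors in edgeR, no filter or a minimum of 10 counts per library, a block for the replicate number, each ovary left out, the libraries numbered below 200, and limma on log2(FPKM + 1) or log2(FPKM + 0.1). The replicate numbers do not pair the samples.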

Additional observations from a re-analysis of the deposited data

Results flagged for a closer look

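In 4 of the 62 sets of ovaries examined (31 genes in each genotype), the highest or lowest ovary stood apart from the rest by Dixon's criterion, which chance meets in about 1 of 20 sets. Sema3a was at 1.74 FPKM in WT replicate 2 and between 0.803 and 0.996 FPKM in the other WT ovaries. Sema3g was at 12.6 FPKM in WT replicate 3 and between 5.65 and 6.77 FPKM in the others. Sema6c was at 1.87 FPKM in ERβKO replicate 3 and between 3.64 and 3.89 FPKM in the others. Plxna1 was at 14.9 FPKM in ERβKO replicate 1 and between 12.8 and 12.9 FPKM in the others.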

How the results depend on the processing

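The 3 DEGs among the members became 7 with DESeq2, and 1 to 6 with 1 ovary left out; 1 remained without WT replicates 1 or 5 or without ERβKO replicates 2, 3 or 4, each time Plxnc1, and 6 were called without WT replicate 2. The 287 DEGs over all genes became 803 with DESeq2, 51 with the libraries numbered below 200 (which leaves 3 WT ovaries), 191 with limma on log2(FPKM + 1), and 60 (without ERβKO replicate 2) to 919 (without WT replicate 2) with 1 ovary left out. The 2 DEGs among the partners became 5 with DESeq2 and 1 with limma at either pseudocount. They became 0 with the libraries numbered below 200, and 0 to 5 with 1 ovary left out. Where edgeR called none, 12 to 14 of 63 partners had an unadjusted p under 0.05. With all 9 ovaries 19 of the 63 did, and 19.8% of all genes. The share over all genes was not taken for the smaller sets of ovaries. Same-numbered WT and ERβKO ovaries did not deviate together (correlations of deviations -0.0427 to 0.13), and 0 of the 4 ERβKO ovaries correlated best with their own number; with the replicate number as a block, 155 genes, 2 members (Plxnc1 and Sema3g) and 1 partner (Mras) were called. The cause of these differences was not tested.

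Of 540 log2 fold changes of members under alternatives, 480 kept direction and side of the threshold, 20 lost and 13 gained an adjusted p under 0.05, and 27 changed sign, the last in 9 genes; 21 of 30 members never changed sign. Sema4b was at 0.0038 with upper-quartile factors and 0.024 and 0.026 with limma, Sema4d at 0.00096 with limma on log2(FPKM + 1), and Sema6c at -0.0099 and -0.016 with limma. With the libraries numbered below 200 Sema3a was at -0.0021 and Sema6b at -0.062, and with the replicate block Sema6b was at -0.0092. With 1 ovary left out the log2 fold change ran from -0.023 to 0.29 for Sema3a, -0.023 to 0.13 for Sema3f, -0.037 to 0.0602 for Sema4b, -0.12 to 0.0505 for Sema4d, -0.14 to 0.063 for Sema4g, -0.038 to 0.12 for Sema5a and -0.043 to 0.22 for Sema5b.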

Other observations

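Among the 5 WT ovaries, WT replicate 2 was the nearest to the ERβKO mean for 9 of the 30 tested members, replicate 3 for 8, replicate 4 for 7, replicate 5 for 4 and replicate 1 for 2. Over all tested genes the shares were 26.7% for replicate 2, 19.8% for replicate 3, 22.2% for replicate 4, 13.7% for replicate 5 and 17.6% for replicate 1. Within genotypes, the median coefficient of variation of the members was 17.3% in WT and 13.6% in ERβKO, and that of all tested genes 15.1% and 12.5%. Among the 30 tested members the second most variable after Sema3d was Sema4a in WT, and in ERβKO Sema6b.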
